A study of Mus musculus with 18 samples.

Results

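Cholesterol genes were followed in mouse macrophage samples labelled as low oxygen or starved, with and without a knockout of PHD3. The set comprised 26 genes of the 20812 measured, chosen by pathway, with earlier results of these data known. Of the 20812, 14007 had a RefSeq symbol. The others were counted under the array's own target names, so a gene can count more than once. Shares of all genes include them. It held 18 enzymes from acetyl-CoA to cholesterol, 5 genes of the SREBP control circuit and 3 sterol transport proteins. Probes were matched to genes through their transcript accessions and RefSeq symbols, and all 26 genes were found, on 35 probes. The brightest probe stood for each of the 9 genes with more than 1. All 26 of these signals exceeded background in each of the 18 samples.

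The samples were macrophages derived from femur marrow of male C57BL/6J mice aged 8 weeks, grown with the cytokine M-CSF over 7 days. They were wild type or PHD3-/-, each in 3 conditions, giving 6 groups of 3 samples. The conditions were oxygen 20 with control feeding (here called control), oxygen 1 with control feeding, and oxygen 20 with the feeding state starved. The oxygen values carry no unit in the labels. The design text speaks of starved and normal feeding while the treatment protocol states that the animals were untreated, so whether cells or mice were starved is not settled. The labels do not say how the knockout was made, which part of the gene was deleted or whether the mice were littermates. Each group is described as 3 mice, without a statement on whether conditions shared a mouse. P-values treat all 18 samples as independent.

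Cholesterol synthesis starts with acetyl-CoA, which thiolase and HMG-CoA synthase condense before the mevalonate steps lead to the isoprenoid farnesyl diphosphate. Squalene synthase joins farnesyl units, squalene epoxidase and lanosterol synthase close the ring system, and a further series of enzymes converts lanosterol to cholesterol. The transcription factor SREBP-2, encoded by Srebf2, drives most of these genes, while SREBP-1 (Srebf1) is best known for fatty acid synthesis. Both are held in the endoplasmic reticulum with the escort protein SCAP when sterol is plentiful, retained there by the INSIG proteins, and are cut in the Golgi to release the active factor when sterol is low. The enzymes encoded by Sqle, Cyp51, Msmo1 and Sc5d consume molecular oxygen. Macrophages also take up large amounts of cholesterol by engulfing cells and lipoproteins, and NPC1 and NPC2 carry it out of the lysosome.

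Values are given as log2 signal above or below the 75th percentile of its array, which is 0 on this scale. Levels of different probes on this scale are not comparable. Differences were fitted with limma over all 18 samples, with Benjamini-Hochberg adjustment over the 20812 genes and a threshold of 0.05. The 20 arrays, on 5 slides, had 56.1% to 65.4% of spots well above background, and 0 saturated spots. Egln3, which encodes PHD3, rose with low oxygen in both genotypes, from -3.77 to -3.10 in wild-type controls to 2.83 to 3.00 at oxygen 1, and from -4.20 to -3.76 to 2.71 to 2.98 in samples labelled knockout. Knockout minus wild type was -0.49, -0.05 and -0.11 in the control, oxygen 1 and starved groups, with a limma adjusted p of 1 in each. The labels do not place its probe inside or outside the deleted part, so it is no check of the genotype, and samples are called knockout by their labels. All 9 measured macrophage markers, among them Csf1r, Adgre1 and Mertk, were well above background in all 18 samples.

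Markers of macrophages and of other cells moved with the conditions. The summed linear signal of 8 neutrophil markers, relative to the 75th percentile, was 12.1 to 18.9 in wild-type controls, 6.44 to 10.1 at oxygen 1 and 7.27 to 9.40 after starvation, and 9.78 to 15.9, 5.40 to 9.96 and 5.74 to 9.18 in the knockout. Of these markers 5 fell and 1 rose at oxygen 1 in wild type, 4 fell and 1 rose in the knockout, and 5 and 4 fell after starvation. Lymphocyte markers (4 measured) summed to 6.96 to 8.14, 3.81 to 4.99 and 5.98 to 6.37 in wild type. In the knockout the sums were 7.65 to 8.98, 4.05 to 4.99 and 7.46 to 8.22, and those of starved samples overlapped the controls. Of these 4 markers 3 fell and 0 rose at oxygen 1 in each genotype. After starvation 2 fell and 0 rose in each, also in the knockout where the sums overlapped. Cd3d, Cd79a and Ncr1 were above background in 0 samples. Stromal and endothelial markers (5 measured) summed to 3.74 to 4.38, 3.27 to 4.28 and 1.90 to 3.12 in wild type and 3.64 to 4.62, 2.81 to 4.01 and 2.32 to 3.38 in the knockout, 2 of them falling after starvation in each, with Pdgfra above background in 0 samples. The summed signal of the 9 macrophage markers was 319 to 365 in wild-type controls, 376 to 408 at oxygen 1 and 339 to 373 after starvation. In the knockout it was 269 to 303, 337 to 375 and 283 to 318. Of these 9 markers 3 rose and 3 fell at oxygen 1 in each genotype, and 2 rose and 0 fell after starvation. Over all genes 20.5% and 21.4% rose and 18.1% and 18.3% fell at oxygen 1 (wild type, then knockout). After starvation 6.49% and 7.14% rose and 6.02% and 6.38% fell. The part of these marker shifts in the results was not tested. In bulk samples fewer cells of a type and less RNA per cell cannot be told apart.

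Letters that SREBP and its partner factors are known to bind were sought in the 250 bases before the starts of the genes, taken from RefSeq on build GRCm38.p6. The table held promoters of 21 of the 26 genes. Fdps, Fdft1, Sqle, Stard4 and Npc1 had no entry. The full sterol regulatory element TCACNCCAC, read on both strands, was present before 1 of the 21 genes, Hmgcs1, against 1.22% of 27025 genes in the table. The shorter form TCACNNCA was present before 9 of 21 genes (42.9%, against 13% of all genes and 11.8% of the 11222 genes that were also measured here). It was 1 of 7 spellings searched, and was taken for display after the counts were known. The NF-Y letters CCAAT were present before 19 of 21 genes (90.5%, against 37.5% and 40%) and the SP1 letters GGGCGG before 20 (95.2%, against 35.4% and 58.8%). The hypoxia-response core was present as ACGTG before 5 genes (23.8%, against 18.5% and 23.9%) and as GCGTG before 14 (66.7%, against 30.9% and 46.1%). A gene with several starts was counted where any start matched. A match describes the letters only and is not evidence of binding.

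The promoters of 5 genes are shown as examples. Hmgcs1 holds the full element, Cyp51 and Msmo1 encode oxygen-consuming enzymes, Srebf2 encodes the regulator itself, and Insig2 moved against the enzymes at oxygen 1. All 5 hold TCACNNCA, present before 9 of the 21 genes, so they do not represent the set. Idi1, Mvd and Lss are among the genes without it. Capitals mark TCACNNCA and CCAAT on either strand, so reverse matches of CCAAT read ATTGG. The Hmgcs1 window is chr13:119690101-119690350, plus strand, the Cyp51 window chr5:4104698-4104947, minus strand, the Msmo1 window chr8:64733579-64733828, minus strand, the Srebf2 window chr15:82147019-82147268, plus strand and the Insig2 window chr1:121332663-121332839, minus strand. For Insig2 the 177 bases outside the annotated span of the gene are printed, so its CCAAT matches nearer the start are not shown.
Hmgcs1: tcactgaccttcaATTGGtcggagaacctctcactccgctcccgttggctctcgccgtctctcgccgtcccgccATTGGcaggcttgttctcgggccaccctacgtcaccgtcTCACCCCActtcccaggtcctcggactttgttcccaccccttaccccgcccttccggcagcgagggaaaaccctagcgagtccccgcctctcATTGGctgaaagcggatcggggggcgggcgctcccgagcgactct
Cyp51: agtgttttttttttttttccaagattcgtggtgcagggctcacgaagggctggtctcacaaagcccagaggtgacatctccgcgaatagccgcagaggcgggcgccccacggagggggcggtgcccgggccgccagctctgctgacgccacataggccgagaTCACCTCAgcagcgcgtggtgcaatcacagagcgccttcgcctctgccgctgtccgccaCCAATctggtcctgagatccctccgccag
Msmo1: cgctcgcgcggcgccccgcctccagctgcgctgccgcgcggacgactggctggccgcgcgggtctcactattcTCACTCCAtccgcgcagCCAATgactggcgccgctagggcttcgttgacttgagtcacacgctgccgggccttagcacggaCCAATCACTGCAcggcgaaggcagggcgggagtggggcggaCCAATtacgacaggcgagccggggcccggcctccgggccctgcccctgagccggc
Srebf2: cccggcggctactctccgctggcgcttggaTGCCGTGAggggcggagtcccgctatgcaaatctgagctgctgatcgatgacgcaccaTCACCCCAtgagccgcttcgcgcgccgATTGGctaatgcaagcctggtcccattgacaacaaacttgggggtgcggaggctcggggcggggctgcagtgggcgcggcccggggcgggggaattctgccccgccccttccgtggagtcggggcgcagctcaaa
Insig2: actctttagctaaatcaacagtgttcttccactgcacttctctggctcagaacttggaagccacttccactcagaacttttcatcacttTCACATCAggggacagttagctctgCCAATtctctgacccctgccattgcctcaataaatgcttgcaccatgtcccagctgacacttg
In Msmo1 the second CCAAT shares its last base with a TCACNNCA match, so they appear as a single capital run. In Hmgcs1 the element lies at -137 to -129 relative to the start, between CCAAT letters on either side. Srebf2 holds TCACNNCA in both orientations and a single CCAAT.

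**Figure D1:**
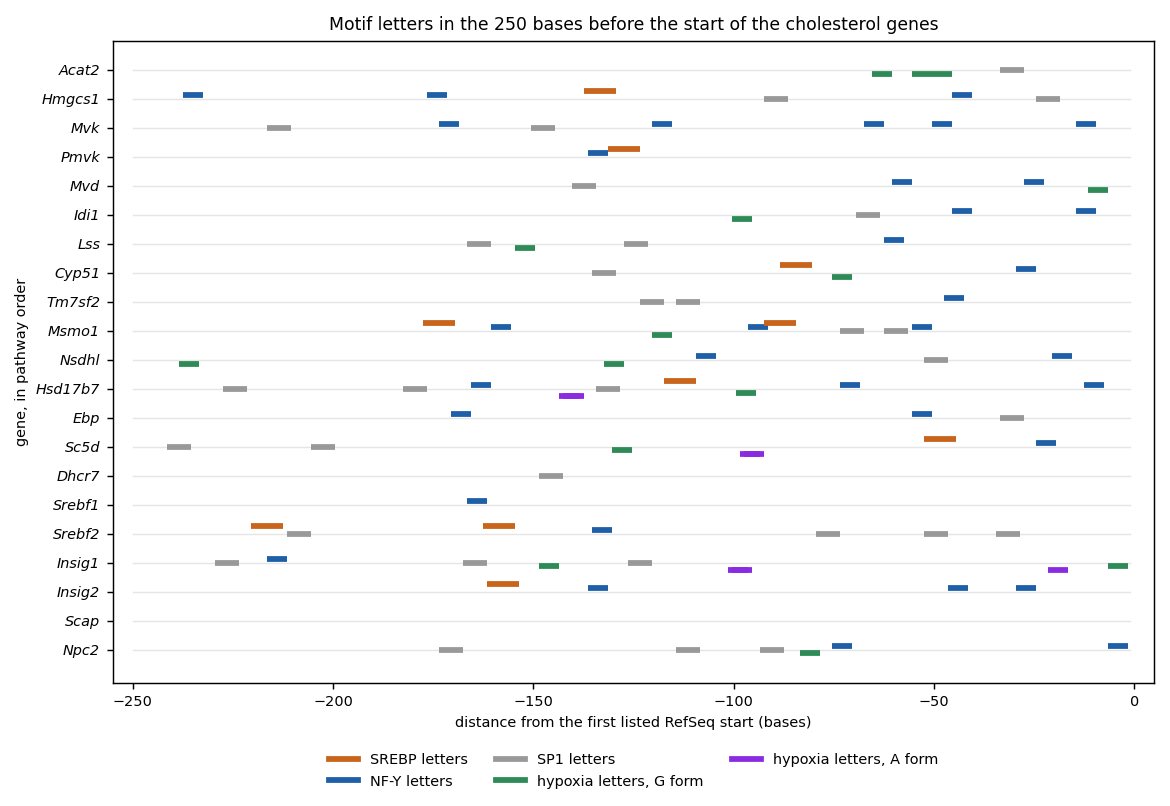
Positions of motif letters in the 250 bases before the first listed RefSeq start of 21 cholesterol genes, in pathway order. The x axis is the distance from the start in bases, and each coloured bar is a match on either strand, with SREBP letters being TCACNNCA. Letters for NF-Y recur before most genes, while the first starts of Dhcr7 and Scap hold few or no marked letters.

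Starvation raised nearly the whole set and low oxygen lowered most of the enzymes. In wild-type macrophages 21 of 26 genes rose with starvation and 0 fell, where 6.49% of all genes tested rose and 6.02% fell. In knockout macrophages 22 of 26 rose and 0 fell, where 7.14% of all genes rose and 6.38% fell. The median difference of the 26 genes was 1.12 in wild type and 0.92 in the knockout on the log2 scale, against 0.018 and 0.012 over all genes. Starved and control samples did not overlap, with starved higher, for 25 of 26 genes in wild type and 26 of 26 in the knockout, against 14.7% and 15.7% of all genes, and lower for 0 of 26 in both, against 15% and 14.9%. The exception in wild type was Scap.

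At oxygen 1, 11 of 26 genes fell and 2 rose in wild type, where 18.1% of all genes fell and 20.5% rose. In the knockout 14 fell and 2 rose, where 18.3% of all genes fell and 21.4% rose. The 2 that rose were Insig2 and Srebf1 in both genotypes. The median difference was -0.39 in wild type and -0.55 in the knockout, against 0.034 and 0.031 over all genes. Low-oxygen samples lay below the controls without overlap for 14 genes in wild type (23.7% of all genes) and 17 in the knockout (22.8%), and above them for 4 and 3 (26.2% of all genes in each). Low-oxygen and starved samples were set against the same control samples, so the comparisons are not independent of each other and their values are given side by side. Earlier results of these data set 3 samples apart, namely control replicate 1 and starved replicate 3 in wild type and control replicate 3 in the knockout. Without them 8 genes fell at oxygen 1 in wild type and 12 in the knockout, and 17 and 19 rose after starvation. Counts over all genes are not given for this fit, so a weaker set and fewer samples cannot be told apart.

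These counts shift with the scaling of the arrays. Centring each array on its median moved the median of all genes at oxygen 1 in wild type to -0.12 and the share of rises among all called genes from 53.2% to 34.7%, and then 15 of the 26 genes fell in wild type. In the knockout that share moved from 53.9% to 40.9% and 16 of the 26 fell. Over all genes 5394 fell in wild type and 4885 in the knockout under this centring, against 3765 and 3815 before. After starvation in wild type the share of rises moved from 51.9% to 39.3% under median centring, with 20 of the 26 rising. It moved to 63.1% under another background correction (normexp), which put the median of all genes at 0.18 and left 19 rising. Over all genes 1041 rose there under median centring and 710 under normexp, against 1350.

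**Figure D2:**
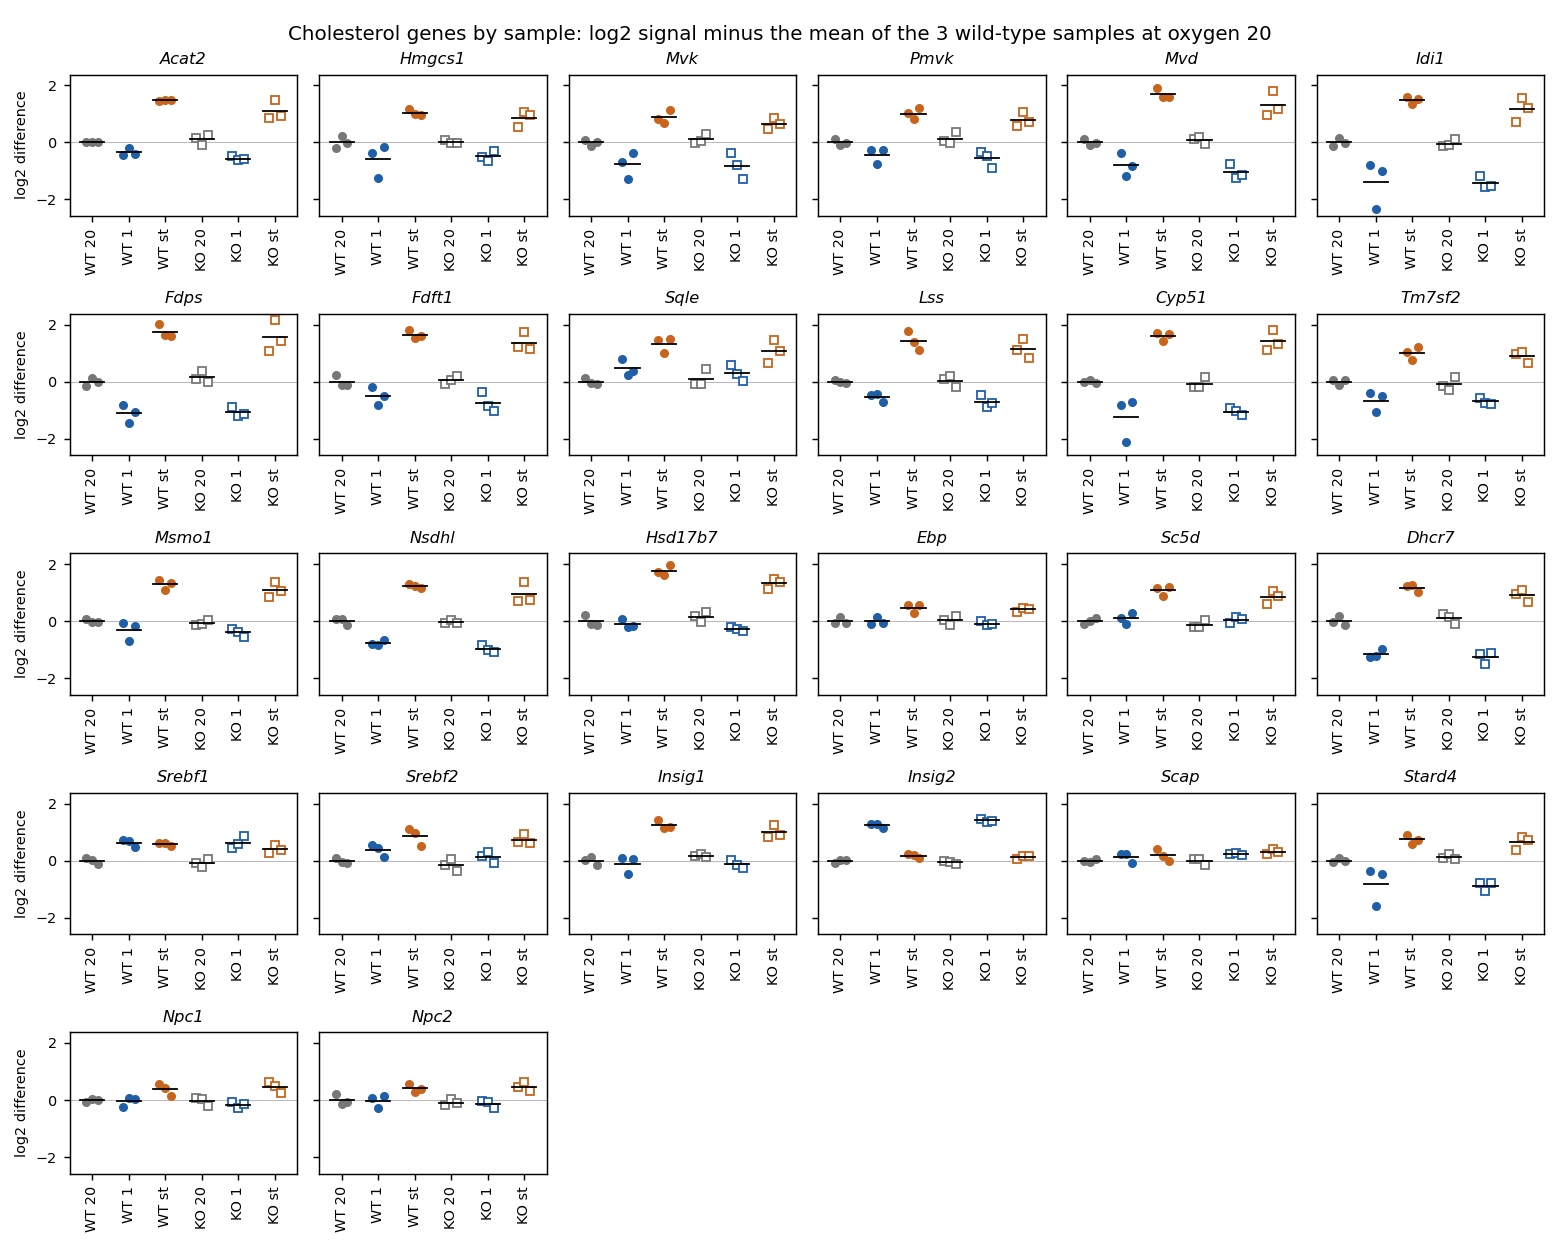
Each panel is a gene and each point a sample, plotted as log2 signal minus the mean of the 3 wild-type controls, with bars at group means. Filled circles are wild type (WT), open squares knockout (KO), and 20, 1 and st stand for control, oxygen 1 and starved. Starved samples lie above the controls in nearly all panels, while Insig2 is high at oxygen 1.

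Over the 18 enzymes, 10 fell at oxygen 1 in wild type and 13 in the knockout, and 0 rose in either. Among all genes 18.1% and 18.3% fell there, and 20.5% and 21.4% rose. After starvation all 18 rose in wild type and 17 in the knockout, the exception being Mvk (0.55, SE 0.23, limma adjusted p = 0.153). Of all genes 6.49% and 7.14% rose after starvation. The steps from acetyl-CoA to farnesyl diphosphate, 7 genes, had median differences of -0.77 and -0.93 at oxygen 1 (wild type, then knockout) and 1.47 and 0.99 after starvation. For the 3 genes that make squalene and lanosterol the medians were -0.51 and -0.73 at oxygen 1 and 1.43 and 1.11 after starvation. The 8 genes from lanosterol to cholesterol had medians of -0.48 and -0.52 at oxygen 1 and 1.19 and 0.97 after starvation.

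Idi1, isopentenyl diphosphate isomerase, had the largest fall of the mevalonate steps. In wild type it read 0.54, 0.81 and 0.64 in controls, -0.13, -1.69 and -0.35 at oxygen 1 and 2.25, 2.0 and 2.18 after starvation. In the knockout it read 0.52, 0.56 and 0.76 in controls, -0.53, -0.90 and -0.85 at oxygen 1 and 1.38, 2.22 and 1.88 after starvation. All low-oxygen samples lay below and all starved samples above their controls, and replicate 2 of wild type at oxygen 1 was the lowest of all. The fall was 2.61-fold in wild type (log2 -1.39, SE 0.31, limma adjusted p = 0.00234) and 2.60-fold in the knockout, and the rise after starvation was 2.79-fold and 2.31-fold.

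Fdps, farnesyl diphosphate synthase, makes the last intermediate shared with protein prenylation and dolichol synthesis. Its wild-type values were 1.48, 1.77 and 1.62 in controls, 0.80, 0.17 and 0.58 at oxygen 1 and 3.64, 3.26 and 3.24 after starvation. Its knockout values were 1.73, 2.01 and 1.60 in controls, 0.74, 0.41 and 0.51 at oxygen 1 and 2.72, 3.77 and 3.05 after starvation. The 3 conditions did not overlap in either genotype. Fdps fell 2.16-fold and 2.34-fold at oxygen 1 and rose 3.37-fold and 2.64-fold after starvation (wild type, then knockout).

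Mvd, mevalonate diphosphate decarboxylase, read -0.53, -0.73 and -0.65 in wild-type controls, -1.02, -1.80 and -1.45 at oxygen 1 and 1.27, 0.95 and 0.95 after starvation. Knockout values were -0.52, -0.43 and -0.69 in controls, -1.38, -1.89 and -1.79 at oxygen 1 and 0.34, 1.17 and 0.53 after starvation. It showed the same order of conditions, with no overlap. Mvd fell by 0.79 (SE 0.22, limma adjusted p = 0.00971) and 1.14 on the log2 scale at oxygen 1 and rose by 1.69 and 1.22 after starvation.

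Acat2, the cytosolic thiolase of the first step, was tightly grouped in wild type, at -2.86, -2.88 and -2.88 in controls, -3.32, -3.08 and -3.27 at oxygen 1 and -1.44, -1.41 and -1.38 after starvation. Its knockout values were -2.72, -2.98 and -2.63, then -3.36, -3.51 and -3.47, then -2.04, -1.39 and -1.95 in the same order. Low-oxygen samples lay below the controls in both genotypes, and the difference passed the threshold in the knockout (-0.67, limma adjusted p = 0.00165) but not in wild type (-0.35, adjusted p = 0.0688). The difference between the genotypes in this response was not past the threshold (-0.32, 95% interval -0.75 to 0.11, adjusted p = 1). Starvation raised Acat2 2.76-fold and 1.98-fold.

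The other mevalonate genes moved by less. Mevalonate kinase (Mvk) fell by 0.77 and 0.93 at oxygen 1 on the log2 scale, and rose by 0.88 in starved wild type. HMG-CoA synthase (Hmgcs1), whose promoter holds the full element, differed by -0.59 and -0.50 at oxygen 1, with limma adjusted p of 0.0473 and 0.0913, and rose 2.05-fold and 1.80-fold after starvation. Its response to oxygen 1 did not pass a test of the genotype difference (0.10, 95% interval -0.58 to 0.77, adjusted p = 1). The wild-type call was lost in 10 of 17 alternatives, with adjusted p from 0.0121 to 0.232 over all of them, among them 0.0969 with normexp, 0.056 with quantile scaling, 0.0581 with the authors' table, 0.0818 with no filter, 0.0629 with the slide as a block and 0.0575 without the 3 samples set apart. Phosphomevalonate kinase (Pmvk) differed by -0.43 (adjusted p = 0.0757) and -0.69 (adjusted p = 0.00709) at oxygen 1, and rose 2.0-fold and 1.58-fold after starvation. A second Pmvk probe differed by -0.55 (limma adjusted p = 0.0144 over all 25370 probes) and -0.70 (0.00294) at oxygen 1, so the wild-type call differed between probes.

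Fdft1, squalene synthase, read -1.03, -1.36 and -1.36 in wild-type controls, -1.45, -2.08 and -1.75 at oxygen 1 and 0.57, 0.28 and 0.35 after starvation. Knockout values were -1.32, -1.19 and -1.05 in controls, -1.60, -2.11 and -2.29 at oxygen 1 and -0.04, 0.48 and -0.11 after starvation. Again the conditions did not overlap. Its difference at oxygen 1 was -0.51 in wild type (limma adjusted p = 0.0609) and -0.81 in the knockout (adjusted p = 0.00502), and starvation raised it 3.14-fold and 2.46-fold. A second, dimmer probe of Fdft1 was flat, at 0.19, 0.06, 0.13 and -0.11 in the wild-type and knockout oxygen comparisons and the wild-type and knockout starvation comparisons, none past the threshold. With the mean of both probes the rise after starvation was 0.89 and 0.59 on the log2 scale, against 1.65 and 1.30.

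Sqle, squalene epoxidase, an oxygen-consuming enzyme at a controlled step, did not fall at oxygen 1. Wild-type values were 1.10, 0.95 and 0.88 in controls, 1.79, 1.23 and 1.34 at oxygen 1 and 2.42, 2.0 and 2.46 after starvation. Knockout values were 0.91, 0.89 and 1.44 in controls, 1.57, 1.23 and 1.02 at oxygen 1 and 1.65, 2.43 and 2.05 after starvation. Wild-type samples at oxygen 1 lay above the controls, with a difference of 0.47 (SE 0.22, limma adjusted p = 0.108), while knockout samples overlapped them, at 0.19 (interval -0.28 to 0.67). After starvation Sqle rose 2.49-fold and 1.95-fold.

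Lss, lanosterol synthase, read -1.86, -1.94 and -1.96 in wild-type controls, -2.39, -2.34 and -2.64 at oxygen 1 and -0.13, -0.54 and -0.79 after starvation. Knockout samples read -1.84, -1.72 and -2.10, then -2.38, -2.80 and -2.68, then -0.79, -0.43 and -1.09. Its conditions were separate in both genotypes. Lss fell by 0.54 and 0.73 on the log2 scale at oxygen 1 (limma adjusted p = 0.033 and 0.00568) and rose 2.70-fold and 2.16-fold after starvation.

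Cyp51, lanosterol 14-alpha-demethylase, is the oxygen-consuming enzyme that fell. Its wild-type values were -2.38, -2.33 and -2.45 in controls, -3.22, -4.51 and -3.10 at oxygen 1 and -0.66, -0.97 and -0.71 after starvation. Its knockout values were -2.58, -2.57 and -2.22 in controls, -3.31, -3.43 and -3.55 at oxygen 1 and -1.26, -0.58 and -1.06 after starvation. Replicate 2 of wild type at oxygen 1 was far below the other samples of its group. Cyp51 fell 2.34-fold and 1.96-fold at oxygen 1 (limma adjusted p = 0.00311 and 0.0125) and rose 3.04-fold and 2.81-fold after starvation.

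Dhcr7, 7-dehydrocholesterol reductase, a terminal enzyme of the pathway, had the smallest adjusted p of the falls. It read -1.14, -0.95 and -1.25 in wild-type controls, -2.36, -2.35 and -2.09 at oxygen 1 and 0.10, 0.15 and -0.10 after starvation. The knockout values were -0.85, -0.95 and -1.20, then -2.26, -2.60 and -2.23, then -0.17, -0.02 and -0.43. Gaps between the conditions were wide in both genotypes. The fall was 2.22-fold in wild type (SE of the log2 difference 0.14, limma adjusted p = 1.68e-05) and 2.57-fold in the knockout (adjusted p = 2.92e-06), and the rise after starvation 2.24-fold and 1.74-fold.

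Hsd17b7, the 3-ketosteroid reductase, had the largest rise after starvation in wild type. It read -2.67, -3.02 and -3.03 in wild-type controls, -2.82, -3.10 and -3.07 at oxygen 1 and -1.17, -1.29 and -0.95 after starvation. In the knockout it read -2.73, -2.94 and -2.57, then -3.12, -3.18 and -3.24, then -1.76, -1.42 and -1.54. Wild-type samples at oxygen 1 overlapped the controls, and knockout samples lay below them. Starvation raised it 3.40-fold and 2.25-fold. At oxygen 1 the difference was -0.09 in wild type (limma adjusted p = 0.631) and -0.43 in the knockout (adjusted p = 0.0208). A second probe of Hsd17b7 fell in both, by 0.69 (adjusted p = 0.0189 over all 25370 probes) and 0.81 (adjusted p = 0.00721), so the wild-type result at oxygen 1 differed between probes.

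Among the remaining late enzymes, Nsdhl, the C4 decarboxylase, fell by 0.76 and 0.95 on the log2 scale at oxygen 1 and rose 2.34-fold and 1.94-fold after starvation. A second Nsdhl probe differed by -0.43 (limma adjusted p = 0.155 over all 25370 probes) and -0.66 (0.0344) at oxygen 1, so the wild-type call differed between probes. The sterol reductase Tm7sf2 fell by 0.66 and 0.61 at oxygen 1 and rose 2.01-fold and 1.96-fold after starvation. Methylsterol oxidase (Msmo1) differed by -0.30 (limma adjusted p = 0.165) and -0.33 (adjusted p = 0.125) at oxygen 1 and rose 2.46-fold and 2.24-fold after starvation. The desaturase Sc5d differed by 0.10 and 0.18 at oxygen 1 (95% intervals -0.20 to 0.39 and -0.11 to 0.47), and rose 2.12-fold and 1.95-fold. Ebp, the sterol isomerase, had the smallest rise of the enzymes after starvation, and differed by -0.01 and -0.13 at oxygen 1. Its rise was 1.39-fold and 1.29-fold.

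Set by their use of oxygen, a grouping made after the values were known, 1 of the 4 oxygen-consuming enzymes fell at oxygen 1 in each genotype, namely Cyp51. Of the other 14 enzymes 9 fell in wild type and 12 in the knockout. Over all genes 18.1% fell in wild type and 18.3% in the knockout, and 1 of 4 is near that share. Median differences were -0.10 and -0.08 for the 4 and -0.63 and -0.77 for the 14. After starvation the medians were 1.31 and 1.07 for the 4 and 1.33 and 0.98 for the 14. The difference between these groups of genes was not tested.

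**Figure D3:**
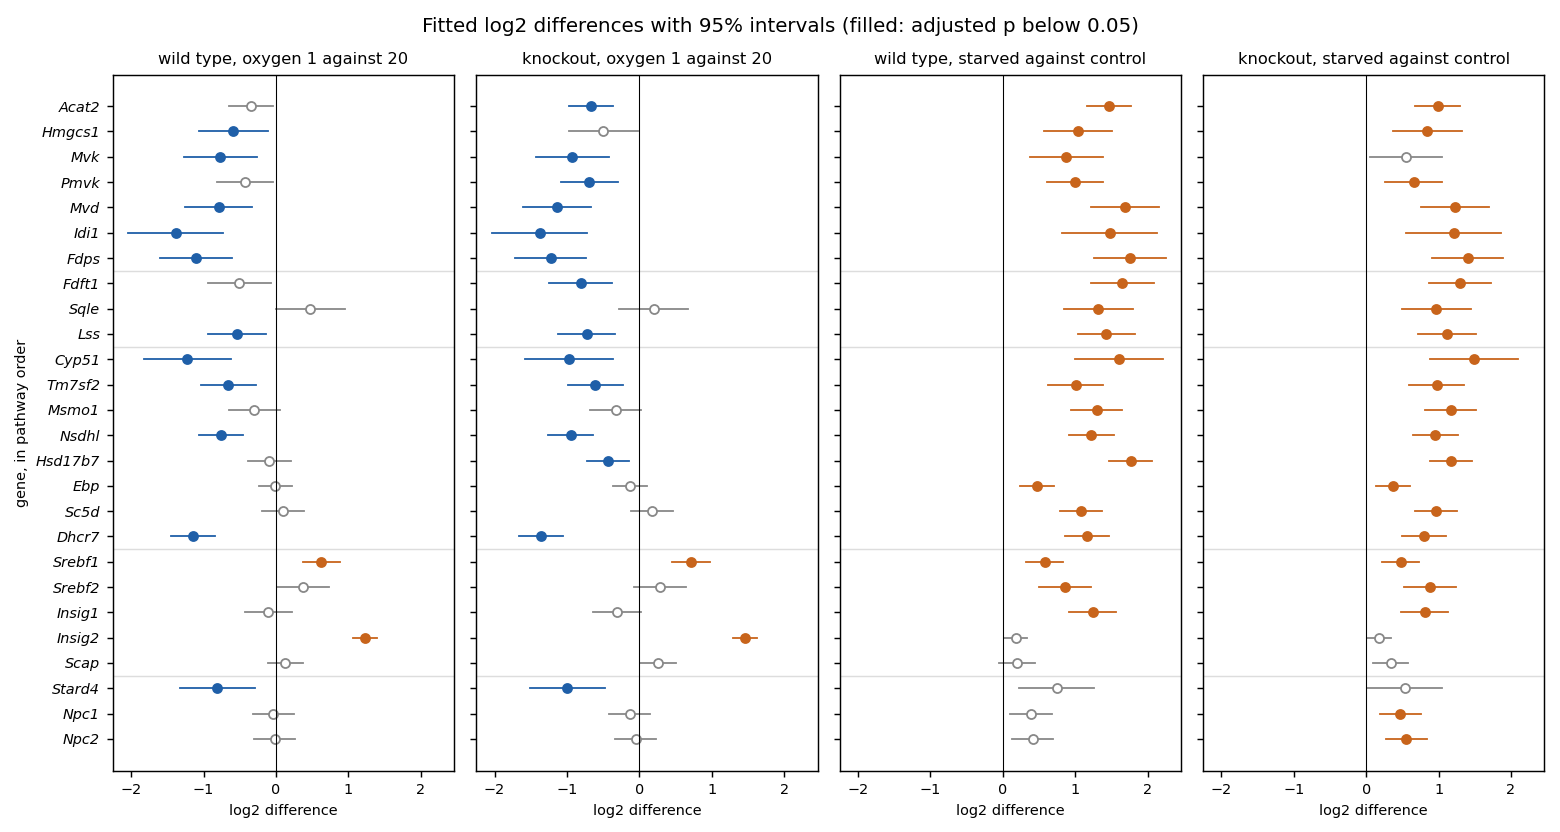
Log2 differences fitted with limma, with 95% intervals, for the 26 genes in pathway order, separated by role. Filled points passed an adjusted p of 0.05, blue for lower and orange for higher. In the oxygen panels blue enzymes contrast with orange Insig2 and Srebf1, and both starvation panels lie to the right of 0.

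Insig2, which anchors SCAP and so holds SREBP back, behaved unlike the enzymes. Wild-type values were 1.16, 1.25 and 1.26 in controls, 2.51, 2.50 and 2.36 at oxygen 1 and 1.44, 1.43 and 1.33 after starvation. Knockout values were 1.21, 1.19 and 1.12 in controls, 2.69, 2.58 and 2.63 at oxygen 1 and 1.29, 1.38 and 1.37 after starvation. Every low-oxygen sample lay above every control and starved sample. Insig2 rose 2.35-fold in wild type (log2 1.23, SE 0.08, limma adjusted p = 2.04e-08) and 2.75-fold in the knockout (log2 1.46, adjusted p = 3.43e-09). After starvation its difference was 0.18 and 0.17, neither past the threshold (adjusted p = 0.177 and 0.169), though starved samples lay above controls in both genotypes. A second Insig2 probe rose by 1.33 and 1.09 at oxygen 1 and differed by 0.15 and -0.07 after starvation.

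Insig1, the paralogue that is itself an SREBP target, moved differently. It read -2.51, -2.42 and -2.69 in wild-type controls, -2.45, -2.99 and -2.49 at oxygen 1 and -1.12, -1.41 and -1.37 after starvation. Its knockout values were -2.36, -2.29 and -2.42, then -2.52, -2.70 and -2.79, then -1.72, -1.28 and -1.65. Starvation raised Insig1 2.36-fold and 1.75-fold (limma adjusted p = 8.25e-05 and 0.00225). At oxygen 1 it differed by -0.11 (95% interval -0.43 to 0.22) and -0.31 (-0.64 to 0.01), with overlap in wild type and none in the knockout.

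Srebf2 read 1.31, 1.16 and 1.14 in wild-type controls, 1.75, 1.65 and 1.34 at oxygen 1 and 2.32, 2.18 and 1.71 after starvation. Knockout samples read 1.04, 1.27 and 0.84, then 1.35, 1.51 and 1.13, then 1.84, 2.13 and 1.82. Starved samples were above controls in both genotypes, and Srebf2 rose 1.82-fold and 1.84-fold (limma adjusted p = 0.00287 and 0.00244). At oxygen 1 the differences were 0.38 (adjusted p = 0.0897) and 0.28 (adjusted p = 0.21). A second probe gave -0.21 and -0.43 at oxygen 1 and 0.43 and 0.33 after starvation, none past the threshold, so the probes disagreed in sign at oxygen 1 and in size after starvation.

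Srebf1 rose under both stresses. Wild-type values were -2.42, -2.48 and -2.61 in controls, -1.79, -1.81 and -2.02 at oxygen 1 and -1.90, -1.89 and -1.98 after starvation. Knockout values were -2.58, -2.72 and -2.44 in controls, -2.06, -1.92 and -1.62 at oxygen 1 and -2.24, -1.96 and -2.11 after starvation. Both stressed groups lay above the controls without overlap. The rise was 1.54-fold and 1.64-fold at oxygen 1 (limma adjusted p = 0.000801 and 0.000256) and 1.49-fold and 1.39-fold after starvation (adjusted p = 0.00471 and 0.0155). The call in the starved knockout was lost under several alternatives. Its limma adjusted p was 0.294 with normexp, 0.0736 with the authors' table, 0.0527 with first arrays alone and 0.0967 with the slide as a block. The array reads Srebf1 with 1 probe and does not separate its isoforms.

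Scap, the escort protein, read 1.81, 1.79 and 1.89 in wild-type controls, 2.07, 2.06 and 1.75 at oxygen 1 and 2.24, 2.0 and 1.82 after starvation. Its knockout values were 1.87, 1.88 and 1.67, then 2.07, 2.09 and 2.04, then 2.05, 2.24 and 2.14. Wild-type conditions overlapped, while in the knockout all stressed samples lay above the controls. None of the 4 differences, 0.13 and 0.26 at oxygen 1 and 0.19 and 0.34 after starvation, passed the threshold, the smallest limma adjusted p being 0.0716.

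Stard4, which carries sterol between membranes and is an SREBP target, followed the enzymes at oxygen 1. Wild-type values were -0.16, -0.03 and -0.12 in controls, -0.47, -1.71 and -0.56 at oxygen 1 and 0.79, 0.50 and 0.63 after starvation. Knockout values were -0.02, 0.12 and -0.05 in controls, -0.89, -1.17 and -0.88 at oxygen 1 and 0.28, 0.74 and 0.62 after starvation. No condition overlapped another within a genotype. It fell 1.75-fold and 2.0-fold at oxygen 1. The differences after starvation, 0.74 and 0.53, did not pass (limma adjusted p = 0.0602 and 0.186), while a second probe rose by 1.12 and 0.97 (adjusted p = 0.0143 and 0.0303 over all probes).

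Npc1 read 0.22, 0.31 and 0.28 in wild-type controls, 0.04, 0.35 and 0.32 at oxygen 1 and 0.85, 0.70 and 0.42 after starvation. The knockout values were 0.36, 0.32 and 0.05, then 0.20, -0.02 and 0.13, then 0.89, 0.75 and 0.51. Starved samples were above their controls in both genotypes. Npc2 read 5.19, 4.84 and 4.91 in wild-type controls, 5.05, 4.71 and 5.13 at oxygen 1 and 5.53, 5.28 and 5.36 after starvation. Its knockout values were 4.79, 5.01 and 4.88, then 4.93, 4.90 and 4.70, then 5.43, 5.60 and 5.31. Both genes overlapped their controls at oxygen 1 in wild type and in the knockout. After starvation the rise passed the threshold in the knockout, 1.39-fold for Npc1 and 1.47-fold for Npc2 (limma adjusted p = 0.0289 and 0.0111), and not in wild type, at 1.31-fold and 1.33-fold (adjusted p = 0.0781 and 0.0566).

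**Figure D4:**
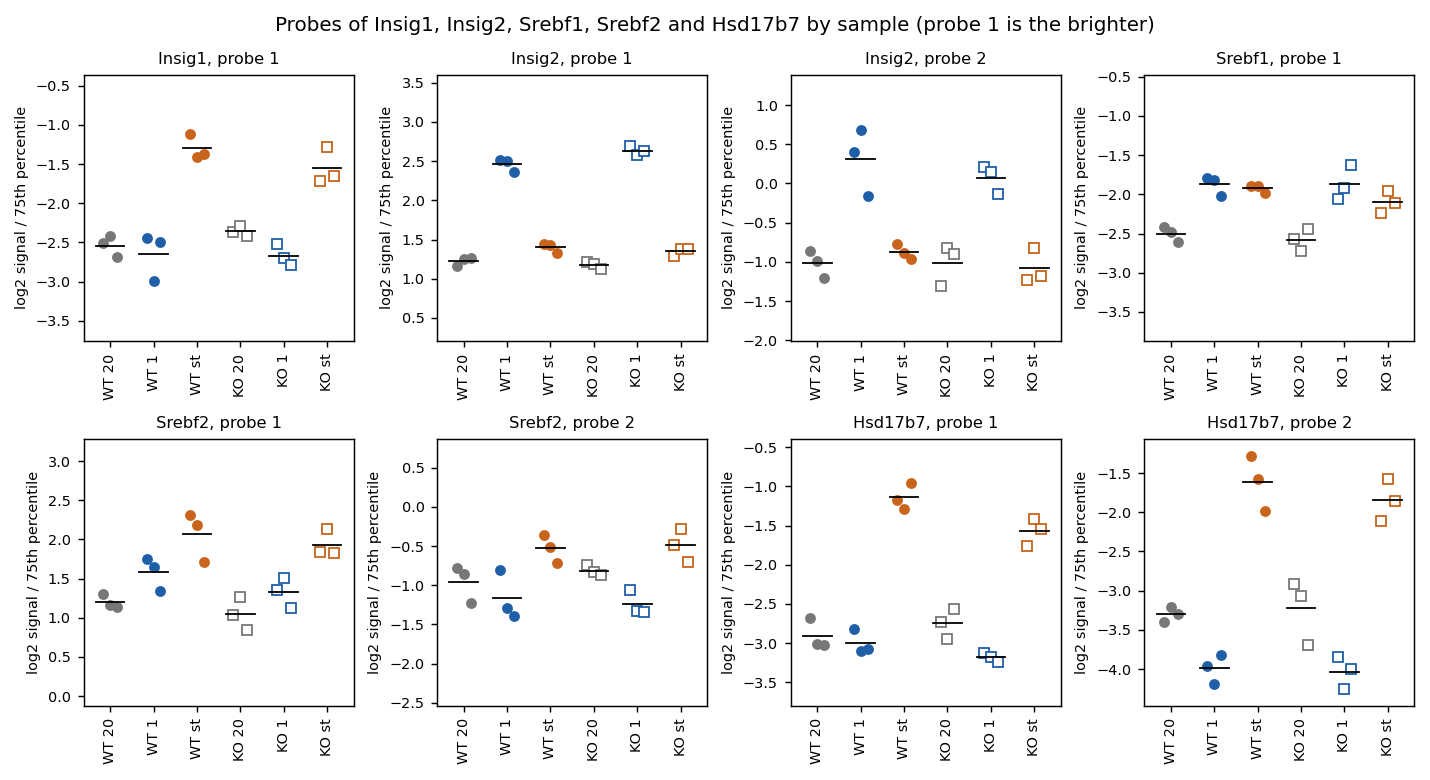
Log2 signal, with the array's 75th percentile at 0, for single probes of Insig1, Insig2, Srebf1, Srebf2 and Hsd17b7, a point per sample and bars at group means. Circles are wild type (WT) and squares knockout (KO), and every panel spans the same height. Both Insig2 probes rise at oxygen 1, while the Srebf2 probes part there, at 0.38 and -0.21 in wild type.

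The stresses were also compared directly. Between oxygen 1 and starvation 24 of 26 genes differed in each genotype, 23 lower and 1, Insig2, higher at oxygen 1. Among all genes 38.1% differed in wild type (18.3% lower, 19.8% higher) and 37.1% in the knockout (17.9% lower, 19.2% higher), and under median centring the share higher in wild type moved from 52.1% to 41.1%. Median differences of the set were -1.61 and -1.49, with extremes of -2.86 for Idi1 in wild type and 1.28 for Insig2 in the knockout. Srebf1 (0.05 and 0.24) and Scap (-0.06 and -0.08) did not pass in either genotype. Cyp51, 7.11-fold and 5.51-fold lower at oxygen 1 than after starvation, and Dhcr7, 4.97-fold and 4.46-fold lower, were among the widest gaps, while Sqle was 1.80-fold and 1.71-fold lower. The calls of Srebf2, Npc1 and Npc2 in wild type were lost without single samples, among them starved replicate 1 (limma adjusted p = 0.149, 0.106 and 0.0841), oxygen 1 replicates 1 (Npc1, 0.102), 2 (Srebf2 and Npc2, 0.0501 and 0.0928) and 3 (Srebf2, 0.132), and starved replicate 2 (Srebf2 and Npc1, 0.108 and 0.0666). In the knockout Sqle and Srebf2 lost theirs without oxygen 1 replicate 3 (0.0583 and 0.0502) or starved replicate 2 (0.0726 and 0.054).

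Knockout and wild type were compared to ask whether PHD3 bears on these genes under stress. In the control, oxygen 1 and starved groups 0 of 26 genes passed the limma threshold (0% of all genes in each), and 0 of 26 averaged over conditions (0.024% of all genes). At an unadjusted limma p below 0.05 the counts were 0, 1, 2 and 0 of 26, against 290, 352, 394 and 508 of all 20812 genes. The responses to oxygen 1 and to starvation differed between genotypes for 0 of 26 genes (0% of all genes in both). At an unadjusted limma p below 0.05 the counts were 0 and 2 of 26, against 229 and 216 of all 20812 genes. The smallest adjusted p of any of the 26 genes was 1 in each of these comparisons. In starved samples knockout minus wild type was negative for 23 of 26 genes, with a median of -0.21, against 0.004 over all genes. Hsd17b7 was -0.44 (95% interval -0.73 to -0.14) and Acat2 -0.38 (-0.69 to -0.08) there, while Insig2 was 0.17 (0.01 to 0.34) at oxygen 1. Under normexp the median of all genes in this starved comparison was itself -0.14. These intervals are not adjusted for the number of genes.

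Samples of a group differed among themselves across the enzymes. Replicate 2 of wild type at oxygen 1 was the lowest of its group for 14 of 18 enzymes, with a median of -0.83 relative to wild-type controls against -0.40 and -0.45 in the other samples. Without it 8 of the 26 genes fell in wild type. Hmgcs1, Mvk and Mvd no longer passed (-0.27, -0.52 and -0.60, limma adjusted p = 0.232, 0.09 and 0.0522), and Idi1, Cyp51 and Stard4 passed with -0.90, -0.78 and -0.41. Replicate 2 of the starved knockout was the highest of its group for 18 of 18 enzymes, with a median of 1.42 against 0.85 and 0.95, and without it 15 of 26 genes rose. Genes lost were Hmgcs1, Pmvk, Idi1, Ebp, Srebf1, Npc1 and Npc2, with adjusted p of 0.0808, 0.121, 0.0743, 0.119, 0.0736, 0.0852 and 0.0544. Leaving out other single samples gave 9 to 11 falls at oxygen 1 in wild type and 12 to 14 in the knockout. After starvation it gave 19 to 22 rises in wild type and 16 to 20 in the knockout. Counts over all genes are not given for these fits either.

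The weaker calls turned on other single samples too. At oxygen 1 in wild type Lss lost its call without any 1 of the 3 controls (limma adjusted p = 0.0815, 0.0684 and 0.0645) or without replicate 1 or 3 of the oxygen 1 group (0.0573 and 0.111), Mvk without control replicate 1 (0.0504), and Hmgcs1 without control replicate 2 or 3 (0.161 and 0.094). Fdft1 passed without oxygen 1 replicate 1 (0.029) and Srebf2 without oxygen 1 replicate 3 (0.0442). In the knockout Tm7sf2 lost its call without control replicate 3 (adjusted p = 0.0625), and Hsd17b7 without control replicate 1 or 3 (0.0551 and 0.084) or oxygen 1 replicate 2 or 3 (0.051 and 0.0626). After starvation in wild type Mvk lost its call without control replicate 2 or 3 (0.0803 and 0.0609) or starved replicate 1 or 3 (0.0567 and 0.0785), and Ebp without starved replicate 1 (0.0529). Npc1 passed there without starved replicate 3 (0.029) and Npc2 without control replicate 1 (0.0293). In the starved knockout Hmgcs1 lost its call without control replicate 2 or 3 or starved replicate 3 (0.0617, 0.0563 and 0.0702), and Pmvk and Idi1 without control replicate 1 or 2 or starved replicate 3 (0.0804, 0.106 and 0.0513, and 0.0523, 0.0528 and 0.0511). Ebp lost it without control replicate 1 or 2 or starved replicate 1 or 3 (0.0835, 0.161, 0.0534 and 0.0978), Srebf1 without control replicate 2 (0.0762), and Npc1 without control replicate 2 or 3 or starved replicate 1 (0.0542, 0.121 and 0.122). Insig2 and Dhcr7 at oxygen 1 kept their calls in both genotypes under each of these omissions.

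Arrays of both conditions shared a slide in some cases, which allowed single pairs to be compared within a slide, with no test. For wild type at oxygen 1 the 1 such slide gave a median difference of -0.61 over the 26 genes, with 15 of 18 enzymes negative. That pair uses replicate 2 at oxygen 1, the sample with the lowest enzyme values of its group. In the knockout 3 slides gave medians of -0.51, -0.42 and -0.29, the last from second arrays of replicate 1 at oxygen 1 and of control replicate 1, samples whose first arrays are in the other medians. After starvation the medians within slides were 1.27, 1.16 and 1.01 for wild-type pairs and 0.73, 1.18 and 0.77 for knockout pairs. All 18 enzymes were positive on each of these slides.

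Genes next to the pathway were counted in lists written by function, with earlier results of these data known. Among 10 SREBP targets of fatty acid synthesis and related routes, 6 fell and 2 rose at oxygen 1 in wild type, 5 fell and 2 rose in the knockout, and 7 rose and 0 fell after starvation in each genotype. Over all genes 18.1% and 18.3% fell and 20.5% and 21.4% rose at oxygen 1. After starvation 6.49% and 7.14% rose and 6.02% and 6.38% fell. The desaturase Fads1 differed by -1.74 and -1.97 at oxygen 1, the elongase Elovl6 by -1.87 and -1.61, the acetyl-CoA carboxylase Acaca by -1.07 and -0.98 and Mmab by -0.99 and -0.97, all past the threshold. Scd2, another desaturase, rose at oxygen 1 by 1.96 and 1.98 and after starvation by 2.76 and 2.53. Fads2 rose 11.5-fold and 6.14-fold after starvation and did not pass at oxygen 1 (0.13 and 0.06).

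Of 16 genes for sterol handling at membranes, 2 rose and 6 fell at oxygen 1 in wild type, where 20.5% of all genes rose and 18.1% fell. In the knockout 2 rose and 4 fell, where 21.4% of all genes rose and 18.3% fell, the falls being near that share. After starvation 2 rose and 2 fell in wild type (6.49% and 6.02% of all genes), and 4 rose and 2 fell in the knockout (7.14% and 6.38%). The lipoprotein receptor Vldlr rose 5.0-fold and 6.27-fold at oxygen 1, while the lysosomal lipase Lipa fell 2.61-fold and 2.60-fold. Tmem97 differed by -0.87 and -0.90 and the sterol transfer protein Gramd1b by -0.48 and -0.41 there, all past the threshold. After starvation Mylip, a ubiquitin ligase for lipoprotein receptors, rose by 0.51 and 0.74, and Gramd1a fell by 0.74 and 0.66.

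Feeding the pathway are 5 genes of acetyl-CoA supply and ketone use. Of these 3 fell and 0 rose at oxygen 1 in each genotype, where 18.1% and 18.3% of all genes fell and 20.5% and 21.4% rose. After starvation 2 rose and 1 fell in wild type (6.49% and 6.02% of all genes), and 1 rose and 1 fell in the knockout (7.14% and 6.38%). Mitochondrial thiolase Acat1 was lower under both stresses, at -0.68 and -0.74 at oxygen 1 and -0.51 and -0.66 after starvation. The citrate carrier Slc25a1 rose by 0.86 and 0.55 after starvation.

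Among 9 genes that use farnesyl diphosphate for other products, 1 rose and 2 fell at oxygen 1 in each genotype, where 20.5% and 21.4% of all genes rose and 18.1% and 18.3% fell, so these counts are near the background. After starvation 1 rose and 2 fell in wild type (6.49% and 6.02% of all genes), and 1 rose and 4 fell in the knockout (7.14% and 6.38%). Pggt1b, a subunit of a protein prenylation enzyme, fell by 0.84 and 0.77 at oxygen 1, and Ggps1, which makes geranylgeranyl diphosphate, rose by 0.53 and 0.60. Nus1, needed for dolichol synthesis, rose by 0.77 and 0.85 after starvation, while Pdss1, which makes the tail of ubiquinone, fell by 0.64 and 0.75.

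Of 10 genes for SREBP processing and sterol-regulated degradation, 4 rose and 0 fell at oxygen 1 in wild type, where 20.5% of all genes rose and 18.1% fell. In the knockout 3 rose and 1 fell, near the 21.4% and 18.3% of all genes. After starvation 1 rose and 0 fell in wild type (6.49% and 6.02% of all genes), and 0 rose and 1 fell in the knockout (7.14% and 6.38%). Erlin2, which works with INSIG in degradation, differed by 0.60 (limma adjusted p = 0.0159) and 0.46 (0.0559) at oxygen 1, and the ligase Syvn1 by 0.21 (0.047) and 0.25 (0.0215). Paqr3, a Golgi anchor of SCAP, differed by -0.08 (0.771) and -0.91 (0.00172). Of 4 known hypoxia genes, 3 rose at oxygen 1 in both genotypes and Ndrg1 did not pass (0.05 and 0.03). Besides Egln3 these were Bnip3 and Slc2a1, with Bnip3 22.4-fold and Slc2a1 15.9-fold higher at oxygen 1 in wild type and 24.9-fold and 17.3-fold higher in the knockout.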

How the data were processed

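Gene expression was read on 1-colour Agilent mouse arrays. The deposited scanner files hold probe intensity extracted with Agilent Feature Extraction 10.7.3.1, background-subtracted, per the file headers. The authors also deposited a table of log2 values, for which the submitters' processing notes name limma. Here log2 of the processed intensity minus the 75th percentile of each array was used, 2 samples on 2 arrays each were averaged, and spots marked as outliers were dropped (0.116% of values missing). Of 39429 probes, 26055 (66.1%) were named through RefSeq. Probes well above background in at least 3 of 18 samples, with at least 2 values per group, were kept, and the brightest stood for a gene. Means of the 6 groups were fitted to 20812 genes, 14007 of them with a RefSeq symbol and the others under the array's own target names. The fit used limma 3.58.1 in R 4.3.3 (12 residual degrees of freedom), which was also tested on simulated data. Array number limits the precision. The 26 genes, the lists of neighbouring genes and the alternatives were chosen with earlier results of these data known. All 26 genes are named, with values in every sample for the regulators, the transport genes and the 10 enzymes with the largest called difference, and at most 6 genes of another list by smallest adjusted p. Alternatives were normexp background correction (offset 50, on the median signal, since the files used hold no mean signal), quantile and median scaling, the authors' log2 table, other filters, the mean of all probes, first arrays alone, slide or replicate number as a block, and leaving out samples. Values of single probes were adjusted over 25370 probes, a fit added after the values were seen. Same-numbered samples of a genotype did not deviate together throughout, with correlations from -0.0874 to 0.287 over 18 pairs.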

Additional observations from a re-analysis of the deposited data

How the results depend on the processing

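Counts of genes past the threshold stayed within 1.5 times the reported count under each alternative, and 0 called values changed sign. Normexp gave 8 and 11 falls at oxygen 1 (wild type, then knockout) and 19 and 16 rises after starvation. The same counts over all genes were 1970, 2112, 710 and 526, against 3765, 3815, 1350 and 1485 with the reported scaling. With the authors' log2 table the 26 genes gave 12, 14, 22 and 21, and all genes 4269, 4212, 1223 and 1433. With the replicate block the 26 genes gave 10, 14, 22 and 21. All genes called in either direction were then 8110, 8398, 2606 and 2789, against 8040, 8268, 2602 and 2812. With this block Srebf2 passed at oxygen 1 in both genotypes (limma adjusted p = 0.0111 and 0.0437). Of 18 correlations between the deviations of same-numbered samples, 8 exceeded 0.1. Among these were all 3 knockout pairs of oxygen 1 and starvation (0.154, 0.177 and 0.161), a comparison with 24 calls with and without the block and no call of the 26 genes changed by it. In no other comparison of conditions within a genotype did all 3 pairs exceed 0.1. The labels name no shared source. Normexp moved called values by over 1.5 times for Cyp51 at oxygen 1 (-0.74 and -0.63, still past the threshold), and for Acat2 and Hsd17b7 in the knockout (-0.43 and -0.24) and Ebp in starved wild type (0.29), which lost their calls. Of 442 values per comparison, 23 lost and 16 gained a call at oxygen 1 in wild type, 10 and 4 in the knockout, 12 and 8 in starved wild type, and 44 and 0 in the starved knockout. The causes were not tested. Leaving out single samples gave 0 genes differing between genotypes.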
